A study of Homo sapiens with 6 samples.

Results

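The genes of the MYC, MAX and MXD network were examined in OVCA432, an established ovarian cancer line of the high grade serous type. The network was taken as 9 listed genes: MYC, MYCN, MAX, MXI1, MXD1, MXD3, MXD4, MNT and MLX. Every probe set that the platform annotation assigns to exactly 1 of these symbols was used, which gave 29 of the 54675 probe sets on the array and covered 8 of the 9 genes. MXD4 had none, because its 3 probe sets also carry the symbol of a microRNA gene. The genes were chosen by looking at the log2 MAS5 signals of this same comparison, so their differences are given as measured values without a test, and support nothing beyond themselves.

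Cells were held without serum for 24 h and then given serum-free medium with 200 ng/mL recombinant human MFAP5, a secreted glycoprotein of extracellular microfibrils, or with an equal amount of solvent. RNA was collected 48 h later, and each group had 3 samples that the design text calls independent, each on its own Affymetrix U133 Plus 2.0 array. Both groups were the same 1 cell line in the same medium, and MFAP5 was the only labelled difference between them.

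MYC and MYCN are transcription factors with a basic helix-loop-helix leucine zipper. They bind DNA only as a pair with MAX, at a short sequence called the E-box, where they recruit histone acetyltransferases and raise transcription. MXD1, MXI1, MXD3, MXD4 and MNT compete for the same partner and the same sites and bring the SIN3 and histone deacetylase complex, which lowers transcription. MLX is a second hub of the same kind, which pairs with some MXD proteins, with MNT and with the glucose-sensing factors MLXIP (MondoA) and MLXIPL (ChREBP). MYC is often gained in serous ovarian cancer, and it drives ribosome production, nucleotide and polyamine synthesis and cell cycle entry.

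The values are MAS5 signals, a linear brightness per probe set, on arrays that all had a trimmed mean of 500.07. All 10 epithelial and Mullerian carcinoma markers checked, EPCAM, PAX8 and WT1 among them, lay above the brightest Bacillus control probe set on all 6 arrays. None of the 4 leukocyte and none of the 4 endothelial markers did so on all arrays, and of the 7 fibroblast markers COL1A1 and COL1A2 did. The summed signal of all 7 fibroblast markers ran from 282 to 320 over the control and from 343 to 416 over the MFAP5 arrays. COL3A1 and DCN were above the brightest Bacillus control on no array, and COL1A1 had means of 170 in control and 177 with MFAP5. The sum of the 10 carcinoma markers was also higher with MFAP5, at 99899 to 108318 against 87539 to 98141 in control. The leukocyte and endothelial sums overlapped. The part of these differences in the results was not tested. Pairwise array correlations over tested probe sets (points that share RNA and are not replicates) were 0.984 to 0.988 within and 0.967 to 0.971 across the groups. RNA integrity, read from GAPDH as 3′ over 5′ signal in log2, overlapped: -0.20 to -0.06 in control and -0.13 to -0.06 in MFAP5 cells. With 3 arrays a group, precision is limited.

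The 2 MYC genes moved in opposite directions: MYC was lower and MYCN higher with MFAP5, while the groups overlapped for MXI1, MXD1, MXD3 and MNT. Of the 29 probe sets, 18 passed the brightness filter, a mean log2 signal at or above the median of all probe sets, which corresponds to a signal of 53.7. Among these 18, 1 probe set was called higher and 2 lower in the limma fit over all 27307 probe sets (Benjamini-Hochberg adjusted p below 0.05). Over all probe sets tested 25.2% were called, 13.5% higher and 11.8% lower (3679 and 3209 probe sets, or 2302 and 5975 with arrays centred on their medians). The groups did not overlap for 5 of the 18, against 41% of all probe sets tested. The median log2 fold change of the 18 was 0.028, and that of all probe sets tested 0.021. Because the listed genes were chosen with this contrast in view, and because a probe set bright in a single group could pass the filter through it, nothing is read from these shares.

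MYC, the founding member, was measured by 1 probe set, 202431_s_at. Its signals in the control cells were 18327, 16002 and 12665, and in the MFAP5 cells 11282, 10622 and 9722. The groups did not overlap, although the lowest control array lay close to the highest MFAP5 array, and the control arrays spread more widely than the treated ones. The mean signal went from 15665 ± 2846 in control to 10542 ± 783 with MFAP5 (SD, n = 3 each), a log2 fold change of -0.56 ± 0.12 (SE), or 1.47-fold lower. In RNA from whole cultures, fewer cells with a transcript and less of it per cell cannot be told apart. Leaving out 1 array at a time gave values from -0.70 to -0.44, and the other scalings of the arrays gave values down to -0.70.

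MYCN, the paralogue best known from neuroblastoma, had the largest difference of the network. Its probe set 209757_s_at gave 262, 266 and 187 in the control cells and 542, 591 and 529 in the MFAP5 cells. Every treated array was well above every control array, and all 6 lay above the brightest Bacillus control. The mean signal was 238 ± 44.5 in control and 554 ± 32.6 with MFAP5 (SD, n = 3 each), a log2 fold change of 1.23 ± 0.15 (SE), or 2.35-fold higher. With 50 added to each signal, which damps the folds of dim probe sets, it was 2.11-fold higher. The other 9 MYCN probe sets did not pass the filter, with signals between 0.535 and 49.7, so the difference rests on a single probe set. The brightest of these by geometric mean, 234169_at, was above the Bacillus control on none of the control arrays and 2 of the MFAP5 arrays.

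The log2 difference between the MYCN and the MYC probe set within an array is not changed by a constant factor per array, though quantile normalization can change it. It was -6.13, -5.91 and -6.08 on the control arrays and -4.38, -4.17 and -4.20 on the MFAP5 arrays. These values describe the same signals by which the genes were chosen. They do not give the relative abundance of the transcripts, since probe sets differ in how brightly they report one.

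The start of MYCN is shown because it is the member with the largest difference and because E2F factors, which drive the cell cycle, are known to act on it. The sequence is the 250 bases before the annotated start, from RefSeq (GRCh38.p14, chr2:15940300-15940549, plus strand), and capitals mark the letters of E2F-type sites (TTTCCCGC, TTTGGCGC, TTTCGCGC or TTTGCCGC on either strand).
MYCN: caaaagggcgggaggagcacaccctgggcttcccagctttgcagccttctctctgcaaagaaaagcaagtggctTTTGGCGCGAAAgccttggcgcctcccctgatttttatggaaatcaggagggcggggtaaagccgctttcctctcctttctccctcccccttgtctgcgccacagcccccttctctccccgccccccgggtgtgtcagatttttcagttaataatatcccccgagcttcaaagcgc
The run in capitals is 2 such sites on opposite strands that overlap, beginning 176 and 172 bases before the start. Windows of this kind (250 bases before to 50 after a start) held at least 1 E2F-type site in 3.31% of all 35116 windows. Counted by gene, over the tested genes with a window, 4.86% of those called higher held one. The share was 6.85% of those called lower and 7.0% of those not called. The MYCN window held neither an E-box (CACGTG) nor a full cAMP response element (TGACGTCA).

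**Figure D1:**
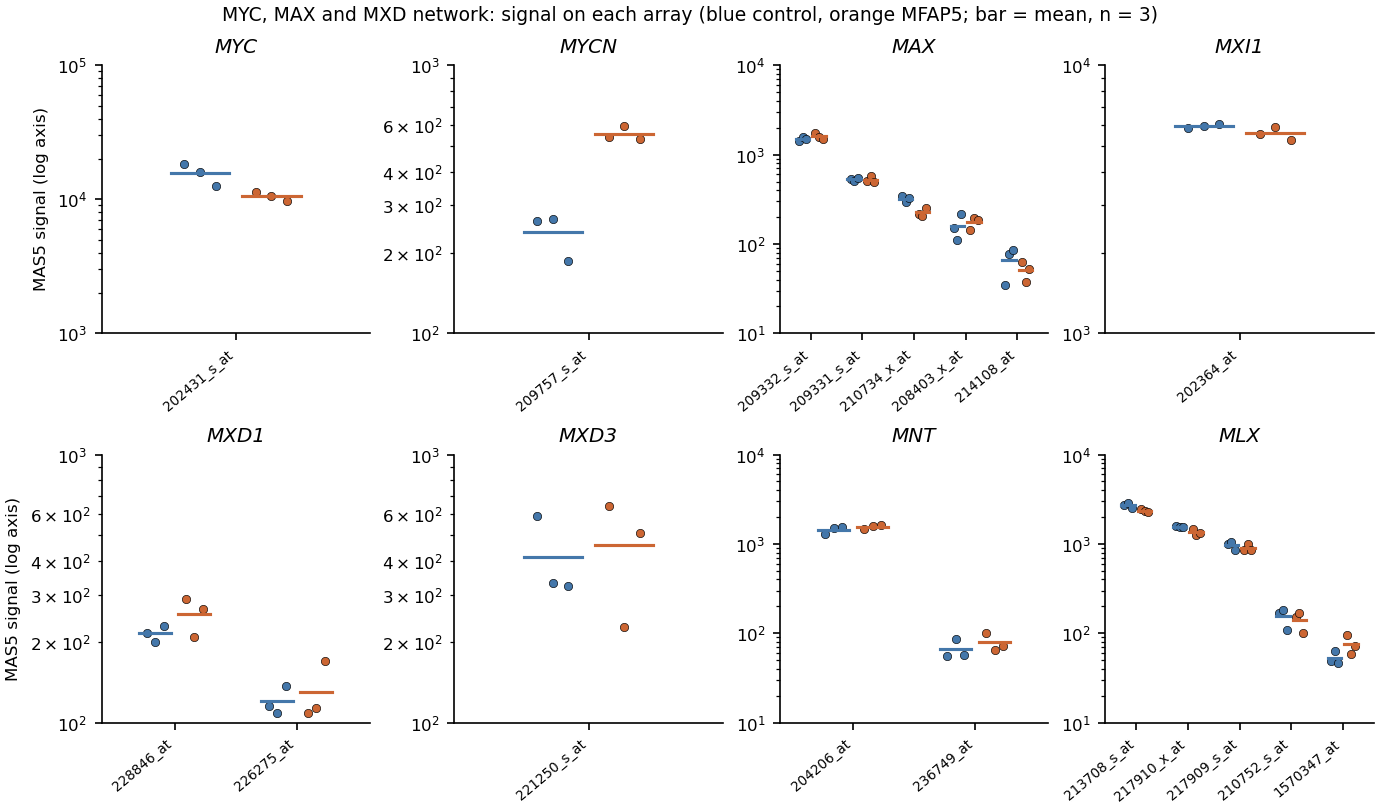
MAS5 signal (log axis, a separate range in each panel) of the 18 probe sets past the filter, by gene, on the 3 control (blue) and 3 MFAP5 (orange) arrays, with the group mean as a bar. MYC lies lower and MYCN higher with MFAP5 on every array, while the MXD1, MXD3 and MNT arrays of the groups overlap.

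MAX, the obligate partner, was represented by 5 probe sets, all past the filter, and they did not move together. The brightest, 209332_s_at, gave 1430, 1564 and 1482 in control and 1742, 1575 and 1507 in MFAP5 cells, a log2 fold change of 0.11 ± 0.08 (SE, n = 3 each). The groups overlapped, and the direction turned over when arrays were centred on their medians (-0.032). Probe set 209331_s_at gave 530, 511 and 545 in control and 504, 572 and 488 with MFAP5, a log2 fold change of -0.02 ± 0.10. Only 210734_x_at did not overlap between groups, with 344, 293 and 327 in control and 216, 204 and 255 with MFAP5 (-0.51 ± 0.14, or 1.43-fold lower). This is the other probe set counted as lower beside MYC, and it dropped out of that count without control replicate 1 or 3 or without MFAP5 replicate 1 or 2, with log2 fold changes from -0.61 to -0.45 over the arrays left out. Its suffix marks probes that can also bind unrelated transcripts. The 2 dimmest, 208403_x_at and 214108_at, had log2 fold changes of 0.16 ± 0.25 and -0.29 ± 0.39. MAX mRNA as a whole therefore had no common direction over its probe sets.

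MXI1, also called MXD2, is a repressor that competes with MYC for MAX. Its probe set 202364_at gave 5820, 5912 and 6027 in control and 5557, 5893 and 5252 with MFAP5. The groups overlapped, and the log2 fold change was -0.09 ± 0.06 (SE, n = 3 each), or -0.23 with arrays centred on their medians. MXD1, which rises in many cells as they differentiate, gave 216, 200 and 230 in control and 289, 208 and 265 with MFAP5 on 228846_at. One MFAP5 array lay within the control range, and the log2 fold change was 0.23 ± 0.16. Its second probe set past the filter, 226275_at, had a log2 fold change of 0.09 ± 0.23, which became -0.046 with arrays centred on their medians, and the third did not pass.

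MXD3, a family member that is expressed in S phase, varied more between replicates than between groups. Probe set 221250_s_at gave 588, 332 and 325 in control and 642, 227 and 511 with MFAP5. Each group held both high and low arrays, so a log2 fold change of 0.08 ± 0.35 (SE, n = 3 each) carried no direction, and it ran from -0.23 to 0.52 as single arrays were left out. MNT, the most widely expressed of the MAX-binding repressors, gave 1287, 1504 and 1546 in control and 1469, 1570 and 1638 with MFAP5 on 204206_at. The groups overlapped, with a log2 fold change of 0.11 ± 0.09, which became -0.026 with arrays centred on their medians. The dimmer MNT probe set, 236749_at, had 0.26 ± 0.29.

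For MXD4 no value is assigned. The 3 probe sets that carry its symbol together with a microRNA gene had log2 fold changes of -0.21 ± 0.09, -0.06 ± 0.10 and 0.12 ± 0.19 (SE, n = 3 each), and none was called.

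MLX, the second hub, had slightly smaller signals with MFAP5 on its brightest probe sets. On 213708_s_at it gave 2733, 2900 and 2530 in control and 2475, 2339 and 2249 with MFAP5, and on 217910_x_at 1572, 1552 and 1526 against 1473, 1265 and 1315. The groups did not overlap on either, but the gap between the closest arrays was narrow. The log2 fold changes were -0.21 ± 0.07 and -0.20 ± 0.08 (SE, n = 3 each), and they were -0.35 and -0.34 with arrays centred on their medians, which shifts all probe sets down. Of the other 3 probe sets past the filter, 217909_s_at (-0.10 ± 0.10) and 210752_s_at (-0.14 ± 0.26) overlapped between groups. The dimmest, 1570347_at, pointed the other way at 0.50 ± 0.29, with 48.8, 64.0 and 46.2 in control and 96.3, 57.9 and 72.7 with MFAP5. The sixth MLX probe set did not pass the filter.

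The filter lay between the MAX probe set 214108_at, the dimmest inside with a geometric mean signal of 55.1, and the MYCN probe set 234169_at, the brightest outside with 25.2.

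**Figure D2:**
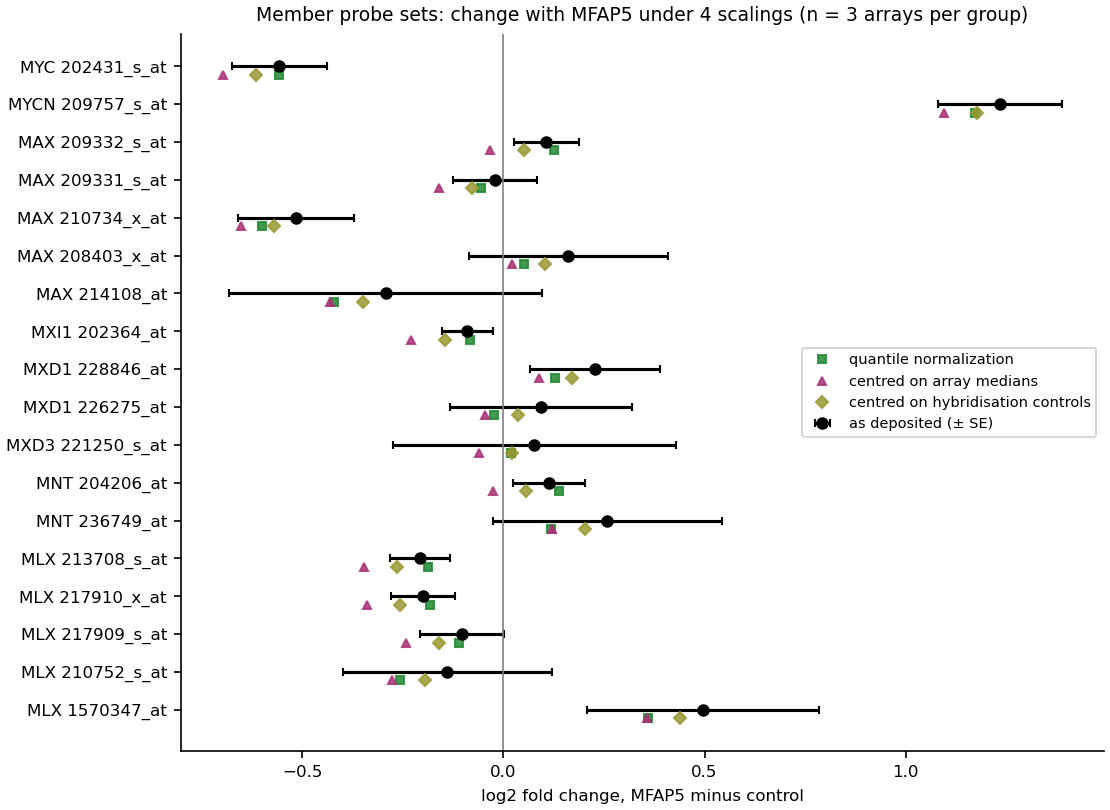
Log2 fold change (MFAP5 minus control, n = 3 arrays each) of the 18 member probe sets past the filter, as deposited with its SE (black) and under 3 other scalings of the arrays (coloured, no error drawn). MYC (-0.56), MYCN (1.23) and MAX 210734_x_at (-0.51) keep their direction under each scaling, and centring on array medians moves every member to the left.

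The network is known to act on its own genes through E-boxes, so the starts of the members were searched for CACGTG, which reads the same on both strands. RefSeq windows of 250 bases before to 50 after the start were matched for 8 of the 9 members, 11 windows in all, and the start of MYC is not used here. MNT, MLX and MXD4 held 1 E-box each, against 7.26% of all 35116 windows, and MYCN, MAX, MXI1, MXD1 and MXD3 held none in these windows. Counted by gene rather than by window, the share among tested genes was higher. It was 14.6% for those called lower, 10.7% for those called higher and 12.9% for those not called. No member window held a full cAMP response element, which 1.85% of all windows did. The stretches around the 3 E-boxes are printed with the E-box in capitals (GRCh38.p14; MNT chr17:2401208-2401293, minus strand; MLX chr17:42567010-42567095, plus strand; MXD4 chr4:2262302-2262359, minus strand).
MNT: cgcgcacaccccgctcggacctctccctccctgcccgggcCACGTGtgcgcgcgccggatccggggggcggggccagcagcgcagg
MLX: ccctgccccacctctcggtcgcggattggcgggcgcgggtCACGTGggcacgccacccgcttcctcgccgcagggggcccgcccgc
MXD4: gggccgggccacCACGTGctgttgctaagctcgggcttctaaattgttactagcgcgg
The E-box begins 50 bases before the start in MLX, 193 in MNT and 238 in MXD4.

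The partners of the network that were not among the 9 genes were MYCL, MLXIP, MLXIPL and MGA, each measured by its brightest probe set. MYCL, another MYC gene, was lower with MFAP5, as MYC was: 607, 630 and 663 in control against 475, 422 and 415 (log2 fold change -0.53 ± 0.10 SE, limma adjusted p = 0.00432, n = 3 each). The groups did not overlap, and a further MYCL probe set was called lower as well. MGA, a large MAX partner that represses germline genes, rose 1.34-fold, from 1432, 1628 and 1471 to 2225, 1786 and 2078 (limma adjusted p = 0.00906, n = 3 each). Neither of its 2 other probe sets was called, and the call was lost when MGA probe sets were averaged (adjusted p = 0.172) and with arrays centred on hybridisation controls (adjusted p = 0.115).

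On the MLX branch, MLXIP did not pass the test (log2 fold change 0.09 ± 0.07 SE, limma adjusted p = 0.342). MLXIPL, which turns on glycolytic and lipogenic genes, gave 120, 118 and 83.8 in control and 224, 170 and 128 with MFAP5, without overlap but also without a call (0.68 ± 0.25, limma adjusted p = 0.0704, n = 3 each). It was called without MFAP5 replicate 3 (adjusted p = 0.0363) and with the replicate block (adjusted p = 0.0291). TXNIP and ARRDC4, arrestin-like proteins that limit glucose uptake and are the best known targets of MLXIP with MLX, both rose. TXNIP went from 8317, 8240 and 7321 to 10428, 10074 and 10001 (1.28-fold, limma adjusted p = 0.00352, n = 3 each), a call shared by both further TXNIP probe sets. ARRDC4 went from 515, 531 and 626 to 702, 789 and 807 (1.38-fold, limma adjusted p = 0.0119, n = 3 each). Both calls were lost with arrays centred on hybridisation controls (adjusted p = 0.098 and 0.127), and that for ARRDC4 also without MFAP5 replicate 2 (adjusted p = 0.0513) and with arrays centred on their medians (adjusted p = 0.0613). PKLR, also on this list, did not pass the filter.

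Of 8 other factors of the same structural class that passed the filter, 3 were called higher, none lower and 5 were not called. These lists were read against all genes tested with 1 probe set each, of which 29.9% were called, 14.6% higher and 15.3% lower. SREBF2, which drives cholesterol synthesis, rose 1.68-fold (limma adjusted p = 0.000926), though neither of its 2 other probe sets was called. MITF rose by 0.60 ± 0.11 on the log2 scale (SE, limma adjusted p = 0.00384) and TFEB, a factor of lysosome genes, by 0.52 ± 0.10 (limma adjusted p = 0.00443), a call lost with arrays centred on hybridisation controls (adjusted p = 0.0644).

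On the activating side, WDR5 and RUVBL1 had the largest differences. Of 17 MYC coactivators and cofactors, 4 were called lower (23.5%, against 15.3% of all genes tested), none higher and 13 were not called. Their median log2 fold change was -0.14, against -0.0084 for all genes tested. With arrays centred on their medians 8 were called lower. WDR5, which helps MYC onto chromatin, gave 1621, 1798 and 1506 in control and 960, 957 and 943 with MFAP5 (1.72-fold lower, limma adjusted p = 0.000143, n = 3 each). RUVBL1, an ATPase found with MYC in chromatin complexes, gave 3428, 3324 and 3355 against 1981, 1978 and 2094 (1.67-fold lower, limma adjusted p = 3.18e-05, n = 3 each). For both genes the groups did not overlap, though a second WDR5 probe set was not called. Its partner RUVBL2 fell by 0.33 ± 0.07 on the log2 scale and the acetyltransferase KAT2A by 0.35 ± 0.09 (SE, limma adjusted p = 0.00784 and 0.0215). RUVBL2 lost its call without the intensity trend (adjusted p = 0.0558) and KAT2A with hybridisation control centring (adjusted p = 0.107). The KAT2A call was also lost without any 1 of 4 arrays (control replicate 1 or 2, MFAP5 replicate 2 or 3, adjusted p from 0.0558 to 0.0883). ZBTB17 (MIZ1), through which MYC represses genes, was not called (-0.13 ± 0.11, limma adjusted p = 0.415).

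On the repressing side, 3 of 14 corepressor genes were called lower (21.4%, against 15.3% of all genes tested), none higher and 11 were not called. With arrays centred on their medians 7 were called lower. SAP30 and BRMS1, subunits of SIN3 complexes, fell by 0.59 ± 0.12 and 0.40 ± 0.07 on the log2 scale (SE, limma adjusted p = 0.00679 and 0.00277). Neither of the 2 other SAP30 probe sets past the filter was called. SAP18 fell by 0.25 ± 0.05 (limma adjusted p = 0.00747), a call that was lost when its probe sets were averaged (adjusted p = 0.649), with hybridisation control centring (0.106) and without the intensity trend (0.0548). SIN3A, the scaffold that MXD proteins bind, had -0.12 ± 0.07 and was not called (limma adjusted p = 0.246).

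Genes that control the amount of MYC were called in both directions. Of 19 genes of MYC protein turnover, 2 were called higher, 3 lower and 14 not. The share called, 26.3%, was near the 29.9% of all genes tested, and nothing is read from it. The kinase GSK3B, which marks MYC for destruction, rose by 0.41 ± 0.07 on the log2 scale (SE, limma adjusted p = 0.00162), and the ubiquitin ligase HUWE1, named after its values were seen, by 0.39 ± 0.07 (limma adjusted p = 0.00286). The GSK3B call was lost with arrays centred on hybridisation controls (adjusted p = 0.105), and neither of its 2 other probe sets was called. PLK1 and AURKA, mitotic kinases that also protect MYC proteins from degradation, fell by 0.66 ± 0.11 and 0.55 ± 0.08 (limma adjusted p = 0.00237 and 0.000947), as did FBXO28 by 0.48 ± 0.10 (limma adjusted p = 0.00571). For FBXO28 the mean of all its probe sets was not called (adjusted p = 0.588). FBXW7, the main ubiquitin ligase for MYC, was not called on its brightest probe set (0.13 ± 0.10, limma adjusted p = 0.383), though 1 of its 2 others was called higher.

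Of 18 genes that act on MYC transcription or mRNA, 3 were called higher, 3 lower and 12 not. The share called, 33.3%, was again near the 29.9% of all genes tested. SMAD3, which represses MYC in the TGF-beta response, gave 645, 656 and 664 in control and 1561, 1364 and 1412 with MFAP5 (2.20-fold higher, limma adjusted p = 1.18e-05, n = 3 each), with all 3 of its other probe sets called higher as well. STAT3, an activator of MYC, rose by 0.61 ± 0.08 and ZFP36, which destabilises mRNAs, by 0.59 ± 0.11 on the log2 scale (SE, limma adjusted p = 0.000643 and 0.00359). CNBP, a MYC promoter-binding protein, fell by 0.51 ± 0.07 (limma adjusted p = 0.000484), but its other probe set was called in the opposite direction. PUF60 and FOXM1, named after their values were seen, fell by 0.35 ± 0.07 each (limma adjusted p = 0.00524 and 0.00419), and the FOXM1 call was lost with arrays centred on hybridisation controls (adjusted p = 0.0581).

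Among textbook targets that MYC activates, the genes called were mostly lower. Of 42 such genes past the filter, 23 were called lower (54.8%), 2 higher and 17 not. Over all genes tested 15.3% were called lower and 14.6% higher. The median log2 fold change was -0.26, against -0.0084 for all genes tested. This list was chosen with earlier results of these data known. ODC1, the rate-limiting enzyme of polyamine synthesis, gave 9597, 9220 and 8871 in control and 6115, 5787 and 5726 with MFAP5 (1.57-fold lower, limma adjusted p = 5.48e-05, n = 3 each). PA2G4, PHB1 and POLR1B, a subunit of RNA polymerase I, fell by 0.59 ± 0.07, 0.57 ± 0.06 and 0.57 ± 0.11 on the log2 scale (SE, limma adjusted p = 0.000164, 0.000168 and 0.0037). However, none of the 3 other POLR1B probe sets past the filter was called, nor was the other PA2G4 probe set. CAD, which starts pyrimidine synthesis, fell by 0.37 ± 0.07 (limma adjusted p = 0.0032) and the nucleolar protein NCL by 0.22 ± 0.07 (limma adjusted p = 0.0349). The CAD call was lost with arrays centred on hybridisation controls (adjusted p = 0.060) and with its probe sets averaged (adjusted p = 0.104). The NCL call was lost without control replicate 1 or without any of the 3 MFAP5 arrays (adjusted p from 0.0662 to 0.15), and also with no filter (0.0719), with hybridisation control centring (0.114) and with no intensity trend (0.132).

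Not all such targets were called lower. NPM1, another nucleolar protein, had 0.09 ± 0.07 (limma adjusted p = 0.403), a sign that turned over with quantile normalization and with arrays centred on their medians. TERT, the catalytic subunit of telomerase, was lower without overlap between groups but was not called (-0.47 ± 0.21, limma adjusted p = 0.139). The 2 that were called higher, LDHA and ENO1, are glycolytic enzymes that also respond to hypoxia. LDHA rose by 0.29 ± 0.07 and ENO1 by 0.20 ± 0.06 on the log2 scale (SE, limma adjusted p = 0.0166 and 0.0254), and neither was called with arrays centred on hybridisation controls or on their medians. The LDHA call was also lost without MFAP5 replicate 1 or 3 (adjusted p = 0.0553 and 0.0514), and that of ENO1 without any 1 array other than control replicate 3 (adjusted p from 0.0507 to 0.0823). Without the intensity trend neither LDHA nor ENO1 was called (adjusted p = 0.0853 and 0.113). The ENO1 call was lost as well with no filter (0.0566) and with its probe sets averaged (0.284). The number called lower was 10 with arrays centred on hybridisation controls and 15 without an intensity trend or without control replicate 1. The cell cycle genes PLK1, AURKA and FOXM1 were lower in the same cells, and their part in these values was not tested.

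E-boxes were frequent at the starts of these targets, whichever way they moved. Of the 36 tested genes with a window, 21 held CACGTG, namely 12 of the 21 called lower, 1 of the 2 called higher and 8 of the 13 not called. Over all genes tested that had a window, 14.6% of those called lower held it, 10.7% of those called higher and 12.9% of those not called. The starts of ODC1, the target with the largest fall, and of the cyclin-dependent kinase CDK4, chosen after its window was seen, illustrate the site, in capitals (GRCh38.p14; ODC1 chr2:10448013-10448081, minus strand; CDK4 chr12:57752366-57752560, minus strand).
ODC1: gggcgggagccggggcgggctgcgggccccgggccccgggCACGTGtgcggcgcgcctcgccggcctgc
CDK4: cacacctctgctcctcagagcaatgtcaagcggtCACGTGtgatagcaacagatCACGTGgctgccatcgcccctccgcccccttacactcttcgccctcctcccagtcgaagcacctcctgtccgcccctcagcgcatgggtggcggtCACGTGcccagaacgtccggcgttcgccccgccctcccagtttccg
ODC1 held 1 E-box and CDK4 held 3, and CDK4 fell by 0.40 ± 0.07 on the log2 scale (SE, limma adjusted p = 0.00337, n = 3 each).

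Genes that MYC is known to repress went the other way. Of 15 past the filter, 11 were called higher (73.3%), none lower and 4 not, and the median log2 fold change was 0.88. The increase of CCN2, NDRG1, ITGB1 and DDIT3 was known when the list was written. Without these 4, an alternative added later, 7 of 11 were called higher (63.6%) and none lower, against 14.6% of all genes tested called higher. The rest of the list was also chosen with earlier results of these data known. CDKN1A, the cell cycle inhibitor p21, gave 286, 267 and 288 in control and 521, 536 and 532 with MFAP5 (1.89-fold higher, limma adjusted p = 0.000239, n = 3 each). CDKN2B, the inhibitor p15, gave 156, 94.8 and 105 against 185, 205 and 207 (1.71-fold higher, limma adjusted p = 0.0237, n = 3 each), and its call was lost without control replicate 2 or 3 or without MFAP5 replicate 2 or 3 (adjusted p from 0.0572 to 0.0782). GADD45A, a growth arrest gene, rose 2.10-fold and THBS1, a secreted inhibitor of angiogenesis, 2.40-fold (limma adjusted p = 7.76e-05 and 4.74e-06), beside CCN2 (3.82-fold) and NDRG1 (2.81-fold). The 4 not called, named after their values were seen, were CDKN1B (-0.13), TP53INP1 (-0.18), NDRG2 (-0.37) and CEBPA (0.54), as log2 fold changes. NDRG2 was called lower without control replicate 3 (-0.61, limma adjusted p = 0.00608) and CEBPA higher without MFAP5 replicate 2 (0.72, limma adjusted p = 0.0321). With the replicate block, NDRG2 and TP53INP1 were both called lower (limma adjusted p = 0.0174 and 0.0343). With arrays centred on their medians 3 were called lower, CDKN1B, NDRG2 and TP53INP1 (limma adjusted p = 0.0355, 0.0453 and 0.00973). With probe sets averaged TP53INP1 was at -0.45 and NDRG2 at -0.47, both called lower (limma adjusted p = 0.00774 and 0.0336), and CEBPA was called higher (limma adjusted p = 0.0422). The genes of this list also respond to other factors, p53, TGF-beta and hypoxia among them.

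**Figure D3:**
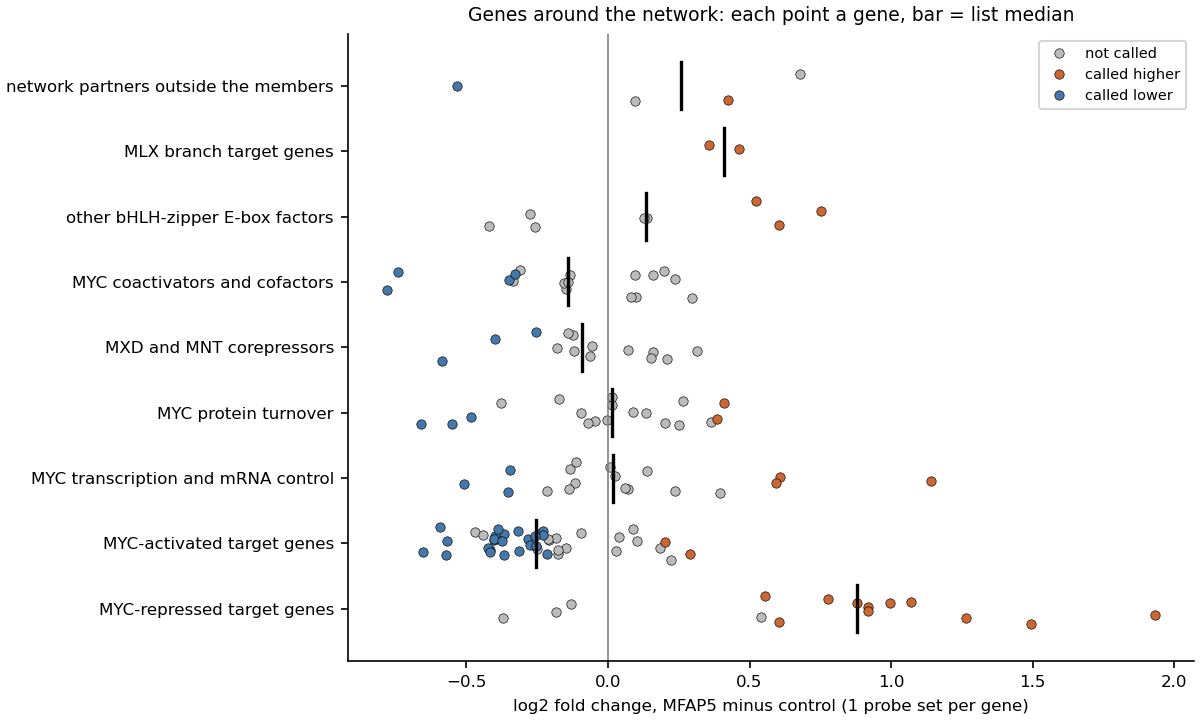
Log2 fold change (MFAP5 minus control) of each gene past the filter in the 9 lists around the network, 1 probe set per gene, coloured by call, with the list median as a black bar; vertical scatter within a list carries no meaning. MYC-activated targets lie mostly to the left (median -0.26) and MYC-repressed targets mostly to the right (median 0.88).

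The genes whose pattern over the 6 arrays was most like that of MYC were TTC12, GCDH, MKS1, EIF2B4 and RPUSD4. Likeness was the root mean square difference between log2 signals, each centred on its mean over the 6 arrays, and it was taken over 12208 genes that were not members. The differences were 0.047, 0.066, 0.069, 0.073 and 0.075 log2 units in that order, while MYC itself deviated by up to 0.52 from its mean. Because they were picked for this likeness, their lower signals with MFAP5 (log2 fold changes of -0.62, -0.50, -0.49, -0.49 and -0.65) follow from the choice and are given without a test. With so few arrays many genes can share such a pattern.

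**Figure D4:**
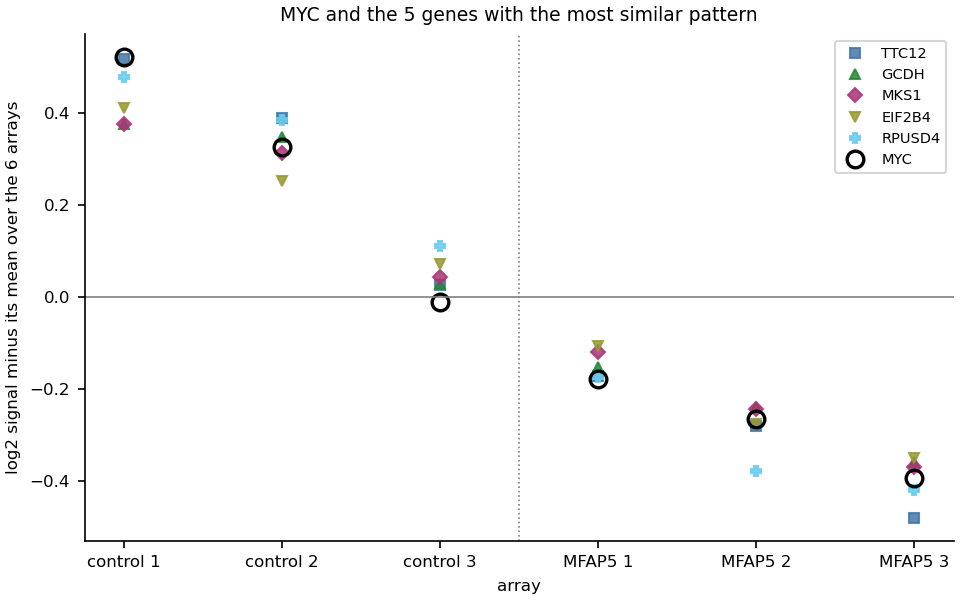
Log2 signal of MYC (open circles) and of the 5 genes most like it, each centred on its own mean over the 6 arrays, by array; the dotted line separates control from MFAP5. The control arrays of MYC run from 0.52 above its mean to just under it, and all 3 MFAP5 arrays lie below it.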

How the data were processed

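Total RNA from 3 MFAP5 and 3 control samples was labelled as biotinylated cRNA and hybridised to U133 Plus 2.0 arrays, per the labels. Each deposited value is an intensity on a linear scale, the MAS5 signal of a probe set. MAS5 is named in the submitters' processing notes, and its version is not given in the sources used here. All 6 arrays had a trimmed mean of 500.07, so they had been scaled to a common target, which hides any shift of most transcripts together. No 2 arrays held identical values.

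The 62 control probe sets were left out. Signals were taken to log2, and probe sets with a mean below the median (a signal of 53.7) were dropped, leaving 27307. The test was limma 3.58.1, run in R 4.3.3 (eBayes with an intensity trend, two-sided, Benjamini-Hochberg adjusted p below 0.05 over all tested). The script was tested on simulated data. Lists of other genes used the brightest probe set of a gene, and 145 of 157 listed genes had one with a single symbol. Named from each list were up to 4 called genes with the largest change whose groups did not overlap, or, with none called, the 2 with the smallest p, beside 16 fixed genes and the 5 most like MYC. Members, lists and this rule were chosen with earlier results of these data known. Promoter windows came from RefSeq (GRCh38.p14). The labels call the samples independent without naming separate cultures, so p-values measure only the spread between them. Alternatives covered the filter, a pseudocount, scaling, the trend, probe set averaging, replicate numbers and single arrays left out.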

Additional observations from a re-analysis of the deposited data

How the results depend on the processing

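MYC stayed lower and MYCN higher under every alternative that could be run, with log2 fold changes from -0.70 to -0.44 (14 alternatives) and from 1.07 to 1.32 (13). MYCN was removed by the filter at the 75% quantile of brightness, which left 0 members called higher. Members called lower numbered 5 with arrays centred on their medians and 1 to 2 with single arrays left out, and members called higher 1 to 1. The probe sets behind the lower counts changed between alternatives. MLX 213708_s_at was called in 4 alternatives, MLX 217910_x_at in 2 and MXI1 202364_at in 1, while MAX 210734_x_at was called in 9 of 13. Centring on medians moved the median of all probe sets by -0.14, which adds to every call of a lower value. Over all probe sets the counts were 3679 higher and 3209 lower. They were 2302 higher and 5975 lower with arrays centred on their medians, and 1920 and 2011 with arrays centred on hybridisation controls. Above the 75% quantile of brightness 2422 were called higher, from fewer probe sets tested. With single arrays left out, 2532 to 3557 were higher and 2118 to 3117 lower, the fewest in each case without MFAP5 replicate 2. For the genes around the network the main counts were 24 higher (17.3%) and 37 lower (26.6%), against 14.6% and 15.3% of all genes tested. Those called lower numbered 63 with arrays centred on their medians and 21 with arrays centred on hybridisation controls. Where no value above shows it, the cause was not tested. Genes not called that changed sign were MLXIP (-0.044) and FBXW7 (-0.0052) with arrays centred on their medians, and NPM1 with quantile normalization (-0.056), medians (-0.050) and the mean of its probe sets (-0.047). Same-numbered control and MFAP5 arrays did not deviate together throughout (correlations 0.09, -0.01 and 0.17), and differently numbered ones gave -0.18 to 0.10. From 3 arrays a group, these correlations cannot show whether the numbers pair the arrays. With the replicate block 4214 probe sets were higher and 3774 lower, and 3 member probe sets were lower, MLX 213708_s_at being the addition.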
